A study of Mus musculus with 46 samples.

Results

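Transcripts of 10 genes of bile acid synthesis and transport were examined in mouse liver after the loss of genes of mitochondrial upkeep. The genes were chosen by symbol, as Cyp7a1, Cyp8b1, Cyp27a1, Cyp7b1, Baat, Slc27a5, Slc10a1, Abcb11, Nr1h4 and Nr0b2, out of 55487 genes listed in the files. All 10 were found once and all 10 passed the filter on low counts, which kept 17024 genes. The study's title ties signals from mitochondria to the identity and maturity of metabolic tissues. Its liver experiment held 13 libraries of total RNA from flash-frozen liver, of which 6 came from livers of control genotype, 4 from livers labelled Mfn DKO and 3 from livers labelled Tfam KO. Mfn1 and Mfn2 encode the mitofusins, which fuse the outer membranes of mitochondria, and Tfam encodes a factor that packages and transcribes mitochondrial DNA. The sample descriptions of all 3 groups, controls included, carry the letters AAV. The labels do not give the vector, promoter, dose, time, strain, age or sex, and the cells in which the genes were lost are likewise not stated.

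Bile acids are made from cholesterol in hepatocytes. In the classic pathway Cyp7a1 places the first hydroxyl group, Cyp8b1 adds the one that makes cholic acid, and Cyp27a1, a mitochondrial enzyme, starts the oxidation of the side chain, while the alternative pathway begins with Cyp27a1 and runs through Cyp7b1. Slc27a5 activates bile acids with coenzyme A and Baat joins them to taurine or glycine, Slc10a1 (the transporter NTCP) takes conjugated bile acids up from portal blood, and Abcb11 (the bile salt export pump) secretes them into bile. The bile acid receptor FXR, encoded by Nr1h4, induces Abcb11 and the small partner SHP, encoded by Nr0b2, which represses Cyp7a1 and Cyp8b1.

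In Mfn DKO livers Cyp27a1 fell to 40.0% of the control level, the 1 gene of the 10 that was called (an adjusted p of 0.05 or less), where 4.64% of all tested genes were called lower. There Baat, Slc27a5 and Slc10a1 lay in all 4 libraries below all 6 controls, between 47.2% and 56.1% of control by the fit, without passing the test over all 13 libraries. In Tfam KO livers 5 of the 10 genes fell, to between 24.4% and 59.4% of control: Cyp27a1, Baat, Slc27a5, Nr1h4 and Nr0b2, where 11.3% of all tested genes were called lower. Cyp7a1 and Abcb11 passed the test in neither comparison. The percentages above are on library sizes scaled by TMM, and the falls were smaller by the authors' TPM. By TPM, Cyp27a1 averaged 444 in controls, 220 in Mfn DKO and 214 in Tfam KO. Tfam KO replicate 2 was the lowest of all 13 libraries for 9 of the 10 genes. When it was left out, Cyp27a1, Baat, Slc27a5 and Slc10a1 fell in both genotypes (9.95% and 5.95% of all genes called lower), and Nr1h4 and Nr0b2 were no longer called. The Nr0b2 call was also lost without most other single libraries. Bulk RNA from whole liver cannot tell fewer hepatocytes from less RNA per hepatocyte.

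The libraries held 41961114 to 56894510 counts each. The TMM factors that scale these sizes were 0.8616 to 0.9293 in controls, 0.9949 to 1.039 in Mfn DKO and 1.036 to 1.432 in Tfam KO. Tfam was at 24.9% of control in the Tfam KO livers, and Mfn1 and Mfn2 were at 24.9% and 24.3% of control in the Mfn DKO livers, each called lower. The labels give no sex, but Xist was between 380.3 and 787.8 CPM (counts scaled to the library's size by TMM) in controls 3, 4 and 5, Mfn DKO 2 and 4 and Tfam KO 2 and 3, and the Y-linked Ddx3y was between 88.3 and 104.7 CPM in the other libraries. These are called Xist libraries and Ddx3y libraries. Both kinds occur in each group, with 1 Ddx3y library among the Tfam KO livers. The summed level of 7 hepatocyte markers was 94210 to 143688 CPM in controls, 88751 to 107319 CPM in Mfn DKO and, in Tfam KO replicates 1 to 3, 65730, 26859 and 101328 CPM, so replicate 2 had the lowest sum. Most of each sum was Alb. In Mfn DKO 0 of the 7 were called by edgeR (9.87% of all genes), with Ahsg at 174% and Apoa1 at 44.6% of control. In Tfam KO 3 were called lower (Apoa1, Serpina1a and Ttr), as were 11.3% of all genes. The counts without Tfam KO replicate 2 were 1 higher (Ahsg) and 3 lower in Mfn DKO (9.56% and 9.95% of all genes). With that library left out, 3 were called lower in Tfam KO (5.95% of all genes). In that library 26.3% of tested genes lay more than 2-fold from the mean of the other Tfam KO libraries, against 25.0% in replicate 3 and 12.6% in replicate 1. In the main fit the p-values set each difference between groups against a spread between libraries that all 3 groups share.

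Promoter sequences were looked up because several of the genes moved together and because FXR, SHP and their partners act on some of these promoters. RefSeq promoters of GRCm38.p6 were matched by symbol for 6 of the 10 genes, and the 250 bases before the start are shown for 5 of them, in the direction of transcription. They stand for a pair of genes called lower in both genotypes once Tfam KO replicate 2 was left out (Cyp27a1, Slc10a1), the exporter that was not called (Abcb11), the repressor (Nr0b2) and the hydroxylase it acts on (Cyp8b1). Capitals mark letters that match a TATA box (TATAAA), a nuclear receptor half-site (AGGTCA), the core of an LRH-1 site (TCAAGG) or an HNF4 motif (CAAAGTCCA). Both strands were searched. The windows are chr1:74713285-74713534 (plus strand) for Cyp27a1, chr12:80968706-80968955 (minus strand) for Slc10a1, chr2:69342617-69342866 (minus strand) for Abcb11, chr4:133553126-133553375 (plus strand) for Nr0b2 and chr9:121916306-121916555 (minus strand) for Cyp8b1, and none overlaps an annotated exon.
Cyp27a1: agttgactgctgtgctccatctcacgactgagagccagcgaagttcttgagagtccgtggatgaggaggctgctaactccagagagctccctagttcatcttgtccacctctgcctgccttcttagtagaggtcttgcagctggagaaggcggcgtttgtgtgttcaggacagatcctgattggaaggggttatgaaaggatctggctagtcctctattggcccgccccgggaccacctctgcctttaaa
Slc10a1: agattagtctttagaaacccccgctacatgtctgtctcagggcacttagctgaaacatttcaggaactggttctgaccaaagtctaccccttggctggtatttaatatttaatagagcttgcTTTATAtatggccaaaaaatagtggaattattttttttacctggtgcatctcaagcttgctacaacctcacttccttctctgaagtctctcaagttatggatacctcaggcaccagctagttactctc
Abcb11: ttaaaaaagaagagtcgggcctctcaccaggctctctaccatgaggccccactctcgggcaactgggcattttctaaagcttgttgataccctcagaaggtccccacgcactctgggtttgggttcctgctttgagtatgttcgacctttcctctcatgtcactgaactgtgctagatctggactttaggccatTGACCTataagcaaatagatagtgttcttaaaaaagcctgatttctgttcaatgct
Nr0b2: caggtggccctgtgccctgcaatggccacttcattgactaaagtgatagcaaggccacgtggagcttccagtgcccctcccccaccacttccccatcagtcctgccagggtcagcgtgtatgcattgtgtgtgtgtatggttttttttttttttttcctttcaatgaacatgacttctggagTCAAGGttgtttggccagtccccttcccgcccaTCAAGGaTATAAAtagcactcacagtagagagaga
Cyp8b1: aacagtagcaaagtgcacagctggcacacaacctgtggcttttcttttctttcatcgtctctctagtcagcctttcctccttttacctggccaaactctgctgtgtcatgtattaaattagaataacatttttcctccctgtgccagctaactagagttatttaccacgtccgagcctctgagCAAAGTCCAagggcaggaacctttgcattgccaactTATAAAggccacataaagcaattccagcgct

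The Nr0b2 window held the LRH-1 core at 68 and at 35 bases before the start and a TATA box at 28 bases before it. LRH-1, the product of Nr5a2, is a receptor that switches on bile acid genes and that SHP holds in check. The core occurs in 12.5% and the TATA box in 12.4% of 32851 promoters. The Cyp8b1 window held the HNF4 motif 67 bases before the start, a motif found in 0.384% of promoters, and a TATA box 31 bases before it. In the Abcb11 window a half-site lay 56 bases before the start, on the strand opposite to the one shown, and 14.0% of promoters hold one. The full inverted repeat to which FXR binds is AGGTCANTGACCT (in 0.00609% of promoters). Searched by exact letters, neither it nor the direct repeat AGGTCANAGGTCA (in 0.0335%) was in any of the 6 genes' windows. The Abcb11 half-site stood within aggccatTGACCT, which has c where the inverted repeat has T. Near matches were not searched for. The Slc10a1 window shown held the letters TATAAA 128 bases before the start, also on the strand opposite to the one shown. Cyp27a1 held none of the motifs. These matches describe letters only.

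In control livers the authors' TPM, which are per transcript length, put Slc27a5 highest at 1066 ± 112 TPM (SD, n = 6). Slc10a1 followed at 635 ± 35.1 TPM, Cyp27a1 at 444 ± 78.0 TPM and Baat at 382 ± 42.2 TPM (SD, n = 6 each). Each of the first 3 lay above the next gene in 6 of 6 libraries, and Baat lay above Cyp7b1 in 5 of 6. The lower levels were 176 ± 186 TPM for Cyp7b1, 174 ± 12.1 TPM for Nr1h4, 155 ± 26.4 TPM for Abcb11, 129 ± 68.7 TPM for Cyp8b1, 95.2 ± 21.1 TPM for Cyp7a1 and 83.4 ± 27.7 TPM for Nr0b2 (SD, n = 6 each). Among these, a gene lay above the next in only 3 or 4 of the 6 libraries, so neighbours in this order did not differ beyond their spread. Slc27a5 and Slc10a1 were thus the most abundant of the 10 in controls, and Cyp7a1, the first enzyme of the classic pathway, was among the least.

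**Figure D1:**
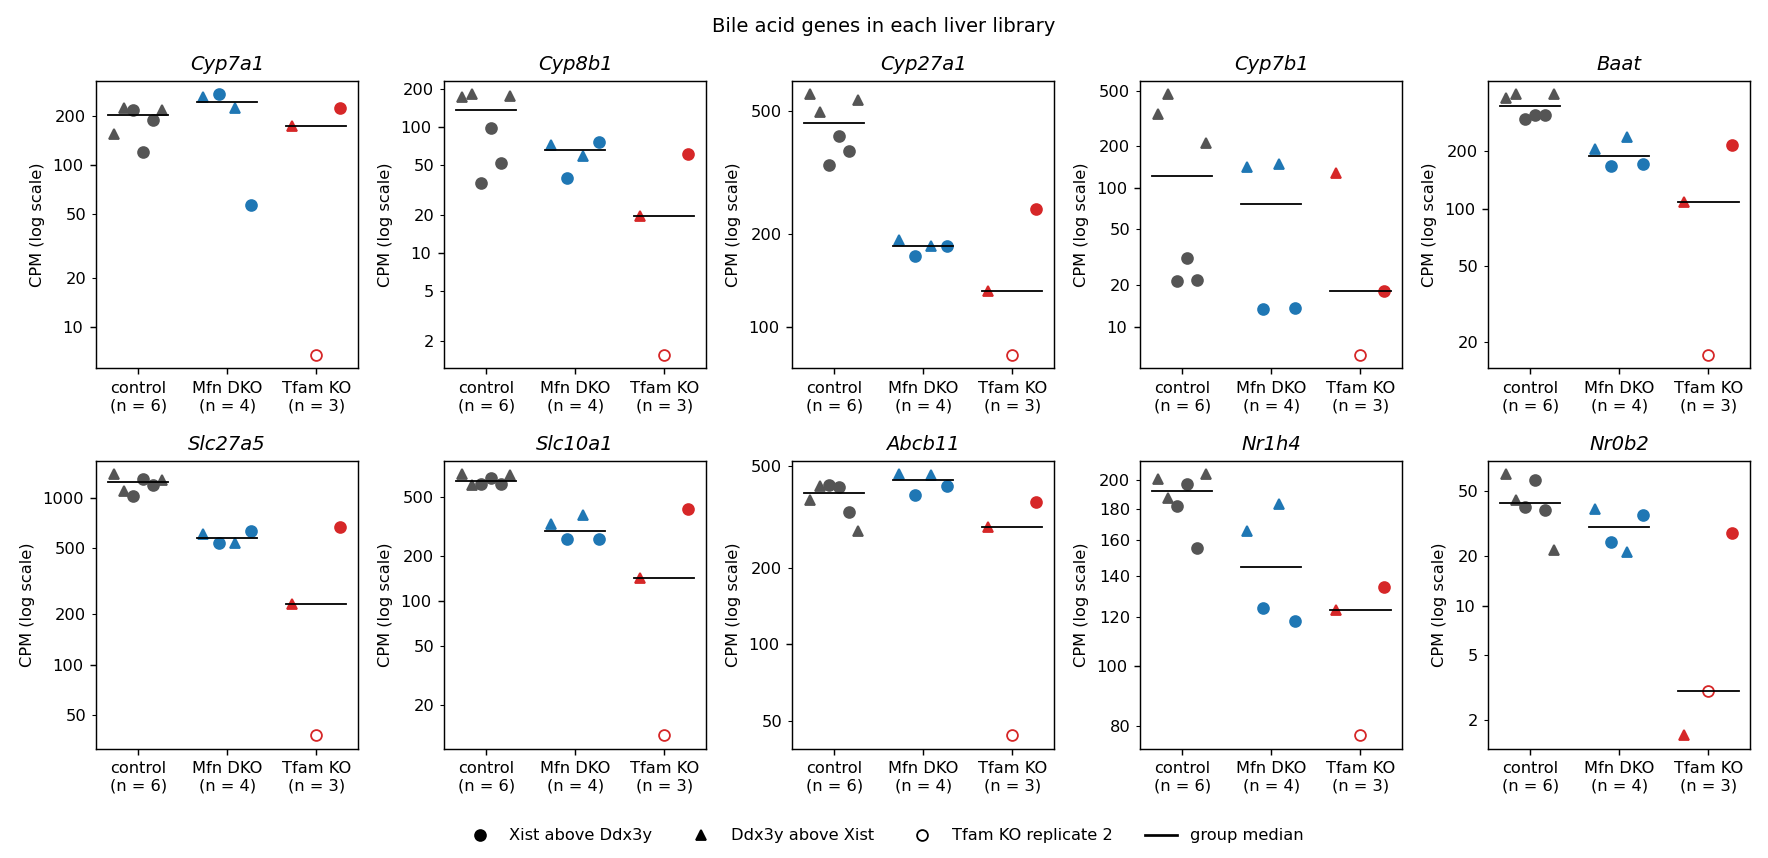
Level of each of the 10 genes in CPM (log scale) in every liver library, by group. Circles are Xist libraries, triangles Ddx3y libraries, the open circle is Tfam KO replicate 2 and lines are group medians. Slc27a5 ran from 1029 to 1387 CPM in controls and from 533 to 632 CPM in Mfn DKO, while Cyp7a1 overlapped between all 3 groups.

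Cyp7a1, the rate-limiting enzyme of the classic pathway (ENSMUSG00000028240, GRCm38 chromosome 4, 6265612 to 6275633, minus strand), was 119 to 222 CPM in the 6 controls, with a median of 202 CPM. The Mfn DKO libraries had 259.5, 271, 224 and 56.1 CPM, and the Tfam KO libraries 172, 6.73 and 223 CPM. Replicate 4 of the Mfn DKO and replicate 2 of the Tfam KO livers were low, and the rest of both groups lay within or above the control range. Its log2 fold change against control was 0.12 (SE 0.63, adjusted p = 0.920) in Mfn DKO and -0.47 (SE 0.71, adjusted p = 0.649) in Tfam KO. Leaving out Tfam KO replicate 2 turned the latter to 0.09 (SE 0.43, adjusted p = 0.918). Standard errors of this size leave room for a 2-fold change in either direction.

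Cyp8b1, the 12-alpha-hydroxylase (ENSMUSG00000050445, chromosome 9, 121914356 to 121916305, minus strand), was 36.0 to 182 CPM in controls, with a median of 135 CPM. It was 72.2, 39.5, 59.0 and 75.5 CPM in Mfn DKO and 19.5, 1.55 and 61.2 CPM in Tfam KO livers. Within the controls the 3 Ddx3y libraries (172 to 182 CPM) lay above the 3 Xist libraries (36.0 to 98.5 CPM), and both knockout groups overlapped the control range. The log2 fold changes were -0.96 (SE 0.71, adjusted p = 0.403) in Mfn DKO and -2.12 (SE 0.84, adjusted p = 0.0725) in Tfam KO. The Wald test of DESeq2 called the Tfam KO difference (-2.14, SE 0.82, adjusted p = 0.0315). Fitted on Ddx3y libraries alone, Cyp8b1 was lower by a log2 fold change of -1.45 (SE 0.11, adjusted p = 0.000105) in 2 Mfn DKO against 3 control libraries. The 1 Tfam KO library of that kind had 19.5 CPM against 172 to 182 CPM in those controls, a difference with no replicate. In Xist libraries alone the changes were -0.11 (SE 1.17, adjusted p = 0.982) and -0.98 (SE 1.21, adjusted p = 0.644), in a fit that holds Tfam KO replicate 2. The difference between the kinds of library was not tested.

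Cyp27a1, the sterol 27-hydroxylase of the inner mitochondrial membrane (ENSMUSG00000026170, chromosome 1, 74713574 to 74737892, plus strand), was 335 to 565 CPM in controls, with a median of 456 CPM. The Mfn DKO libraries lay close together at 191, 170.0, 182 and 183 CPM, and the Tfam KO libraries had 131, 81.1 and 240.3 CPM. Every knockout library was below every control. The log2 fold change was -1.32 (SE 0.26, adjusted p = 0.00924) in Mfn DKO and -1.59 (SE 0.29, adjusted p = 0.00287) in Tfam KO, and without Tfam KO replicate 2 it was -1.32 (SE 0.19, adjusted p = 0.00110) and -1.29 (SE 0.25, adjusted p = 0.00789). In controls the Ddx3y libraries (496 to 565 CPM) were above the Xist libraries (335 to 415 CPM), whereas the Mfn DKO libraries of both kinds spanned 170.0 to 191 CPM. In Ddx3y libraries alone the change was -1.54 (SE 0.11, adjusted p = 7.33e-05) in Mfn DKO, and in Xist libraries alone it was -1.08 (SE 0.45, adjusted p = 0.536).

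Cyp7b1, the oxysterol 7-alpha-hydroxylase of the alternative pathway (ENSMUSG00000039519, chromosome 3, 18071950 to 18243338, minus strand), had the widest spread in controls. Controls 1, 2 and 6, which are the Ddx3y libraries, had 337, 471 and 210.3 CPM, and controls 3, 4 and 5 had 21.4, 31.3 and 21.5 CPM. The Ddx3y libraries of the knockouts had 140.1 and 149 CPM (Mfn DKO) and 127 CPM (Tfam KO), and the Xist libraries had 13.3 and 13.7 CPM and 6.22 and 18.0 CPM. Within each kind of library every knockout value was below every control value, but over all libraries the groups overlapped. The log2 fold changes of -1.20 (SE 1.13, adjusted p = 0.514) in Mfn DKO and -1.85 (SE 1.3, adjusted p = 0.301) in Tfam KO did not pass the test. With the Xist level as a covariate they were -1.0 (SE 0.29, adjusted p = 0.0430) and -0.95 (SE 0.33, adjusted p = 0.0473), both called lower. With that covariate and without Tfam KO replicate 2, the Mfn DKO call held (-1.01, SE 0.23, adjusted p = 0.00806) and the Tfam KO call was lost (-0.68, SE 0.30, adjusted p = 0.130).

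Slc27a5, the bile acid coenzyme A ligase (ENSMUSG00000030382, chromosome 7, 12988346 to 12998192, minus strand), was 1029 to 1387 CPM in controls, with a median of 1241 CPM. It was 609, 533, 536 and 632 CPM in Mfn DKO and 231, 37.5 and 671 CPM in Tfam KO livers, all below the lowest control. Its log2 fold change was -1.08 (SE 0.50, adjusted p = 0.184) in Mfn DKO and -1.96 (SE 0.59, adjusted p = 0.0256) in Tfam KO. The spread behind these errors is shared by all groups, and without Tfam KO replicate 2 the values were -1.07 (SE 0.23, adjusted p = 0.00777) and -1.43 (SE 0.31, adjusted p = 0.0118), both called.

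Baat, which joins the activated bile acid to an amino acid (ENSMUSG00000039653, chromosome 4, 49489422 to 49506557, minus strand), was 297 to 398 CPM in controls, with a median of 344 CPM. The Mfn DKO libraries had 205, 168, 236 and 172 CPM and the Tfam KO libraries 108, 17.1 and 214 CPM. Here too both knockout groups lay wholly below the controls. The log2 fold changes were -0.84 (SE 0.45, adjusted p = 0.244) in Mfn DKO and -1.62 (SE 0.52, adjusted p = 0.0327) in Tfam KO. Once replicate 2 of the Tfam KO livers was left out they were -0.83 (SE 0.18, adjusted p = 0.00928) and -1.11 (SE 0.24, adjusted p = 0.0133). The conjugation genes Slc27a5 and Baat were therefore both called lower in Tfam KO livers with and without that library, and in Mfn DKO livers only without it. In Tfam KO neither was called without Tfam KO replicate 1 or with the compared groups alone. Baat was also not called there without control replicate 1, 2 or 6.

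Slc10a1, the uptake transporter of the sinusoidal membrane (ENSMUSG00000021135, chromosome 12, 80953183 to 80968705, minus strand), was 606 to 710.2 CPM in controls, with a median of 645 CPM. It was 331, 262, 380.5 and 262 CPM in Mfn DKO and 142, 12.5 and 417 CPM in Tfam KO livers, with no overlap with the controls. The log2 fold changes were -1.08 (SE 0.58, adjusted p = 0.244) in Mfn DKO and -1.78 (SE 0.67, adjusted p = 0.0612) in Tfam KO. The Wald test of DESeq2 called the latter (-1.79, SE 0.58, adjusted p = 0.00983). Without Tfam KO replicate 2 both were called by edgeR, at -1.08 (SE 0.24, adjusted p = 0.00875) and -1.23 (SE 0.31, adjusted p = 0.0230).

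Abcb11, the export pump of the canalicular membrane (ENSMUSG00000027048, chromosome 2, 69238282 to 69342616, minus strand), was 279 to 422 CPM in controls, with a median of 393 CPM. The Mfn DKO libraries had 465, 384, 462 and 419 CPM, and the Tfam KO libraries 288, 43.7 and 363 CPM. Mfn DKO values lay in the upper part of the control range or above it, and only Tfam KO replicate 2 lay below it. This placing depends on the scale: by the authors' TPM the 4 Mfn DKO libraries had 197 to 241 TPM, all above the controls at 110.3 to 178 TPM. Its log2 fold change was 0.21 (SE 0.39, adjusted p = 0.750) in Mfn DKO and -0.69 (SE 0.44, adjusted p = 0.253) in Tfam KO, and without that library it was 0.22 (SE 0.13, adjusted p = 0.276) and -0.20 (SE 0.17, adjusted p = 0.483). Exons of 2 other genes on the opposite strand overlap Abcb11, and the strand setting of the counting is not given in the sources used here, so some of its counts are uncertain.

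Uptake and export were set side by side within each library. The ratio of Slc10a1 to Abcb11 CPM was 1.92, 1.45, 1.46, 1.63, 1.86 and 2.54 in controls 1 to 6. It was 0.712, 0.683, 0.823 and 0.626 in Mfn DKO and 0.494, 0.285 and 1.15 in Tfam KO livers. All 7 knockout libraries were below all controls, those with Abcb11 inside or above the control range included. The ratio of Cyp8b1 to Cyp7a1 showed no such order: it was 0.166 to 1.12 in controls, 0.146 to 1.35 in Mfn DKO and 0.113 to 0.274 in Tfam KO. These ratios are given as descriptions and were not tested.

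**Figure D2:**
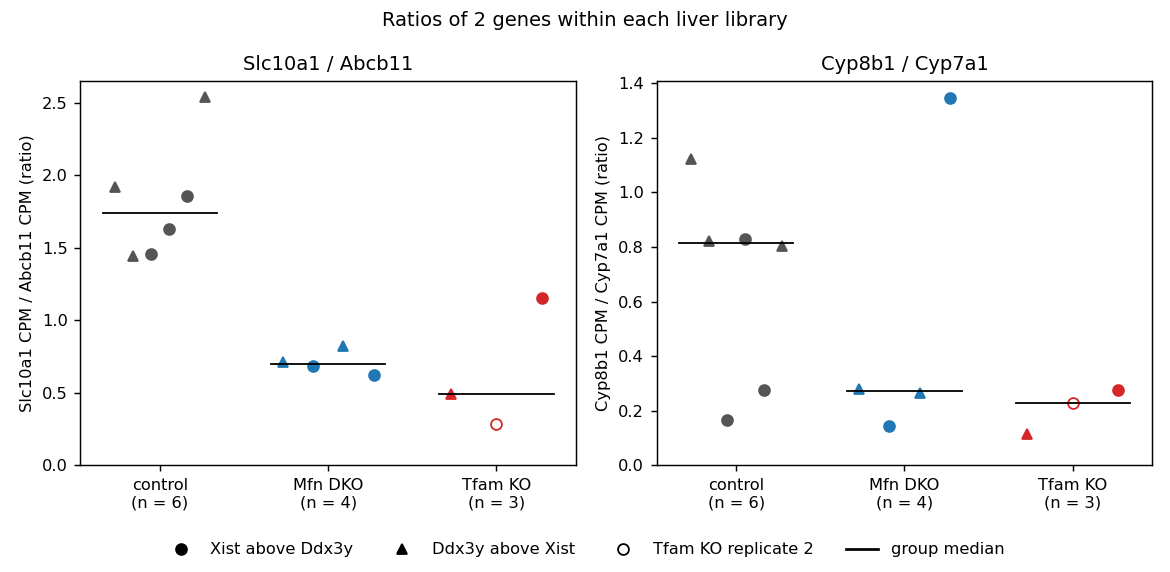
Ratio of Slc10a1 to Abcb11 CPM and of Cyp8b1 to Cyp7a1 CPM in each liver library, by group, with symbols as in the plot of levels. The first ratio was 1.45 or more in every control and 1.15 or less in every knockout library, and the second overlapped between the groups.

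Nr1h4, which encodes FXR (ENSMUSG00000047638, chromosome 10, 89454234 to 89533585, minus strand), was 155 to 205 CPM in controls, with a median of 192 CPM. It was 166, 124, 183 and 118 CPM in Mfn DKO livers, where the Xist libraries 2 and 4 lay below the controls and the others did not, and 123, 77.2 and 134 CPM in Tfam KO livers, all below the controls. The log2 fold changes were -0.35 (SE 0.17, adjusted p = 0.214) and -0.75 (SE 0.19, adjusted p = 0.0131). Without Tfam KO replicate 2 the Tfam KO value was -0.54 (SE 0.17, adjusted p = 0.0555), no longer called. With total counts and no TMM it was -0.36 (SE 0.16, adjusted p = 0.0724), not called either. By the authors' TPM the groups overlapped, at 155 ± 14.1 TPM in Tfam KO (SD, n = 3, range 140 to 167 TPM) and 174 ± 12.1 TPM in controls (SD, n = 6, range 153 to 189 TPM).

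Nr0b2, which encodes SHP (ENSMUSG00000037583, chromosome 4, 133553376 to 133556536, plus strand), was 21.8 to 62.7 CPM in controls, with a median of 41.9 CPM. It was 38.3, 24.5, 21.3 and 35.6 CPM in Mfn DKO and 1.62, 3.04 and 27.7 CPM in Tfam KO livers. Tfam KO replicates 1 and 2 were far below every control and replicate 3 was within the control range. The log2 fold change was -0.56 (SE 0.60, adjusted p = 0.571) in Mfn DKO and -2.04 (SE 0.72, adjusted p = 0.0481) in Tfam KO, and the latter was -1.59 (SE 0.73, adjusted p = 0.165) without Tfam KO replicate 2. The call did not hang on that library alone. With each library left out in turn, Nr0b2 stayed called in Tfam KO only without control replicate 6 or Tfam KO replicate 3. Tfam KO replicate 1, the lowest library for Nr0b2, had Cyp7a1 at 172 CPM, inside the control range.

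**Figure D3:**
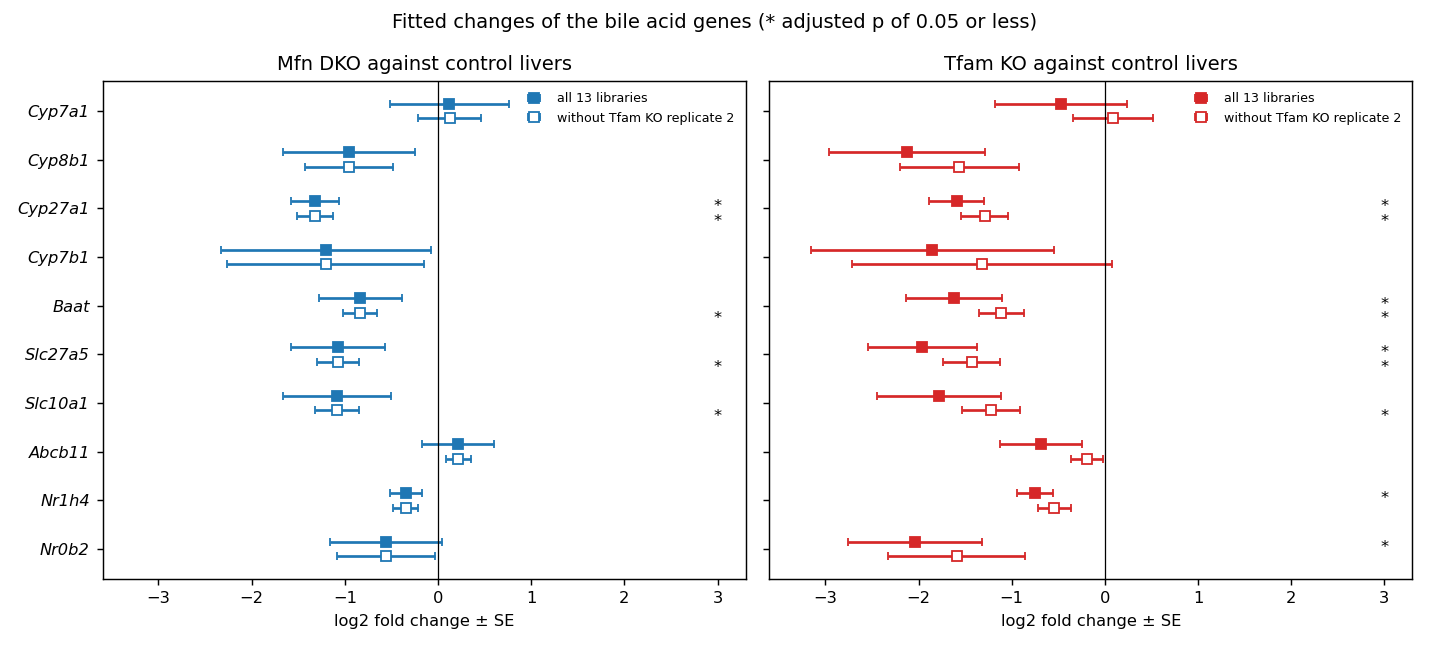
Log2 fold change with its standard error for the 10 genes in Mfn DKO (left) and Tfam KO (right) against control livers, with all 13 libraries (filled) and without Tfam KO replicate 2 (open). Asterisks mark an adjusted p of 0.05 or less, and without that library they stand at Cyp27a1, Baat, Slc27a5 and Slc10a1 in both panels.

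Over the 10 genes together, 1 was called lower and 0 higher in Mfn DKO against control livers, where 4.64% of all tested genes were called lower and 5.23% higher. Against the same 6 controls, 5 were called lower and 0 higher in Tfam KO livers, with 11.3% of all genes called lower and 18.1% higher. The Wald test of DESeq2 called 7 lower in Tfam KO livers, adding Cyp8b1 and Slc10a1, with 13.8% of all genes called lower. The median log2 fold change of the 10 was -0.90 in Mfn DKO and -1.70 in Tfam KO, against 0.02 and 0.03 over all genes, and 8 and 10 of the 10 had a negative sign, against 48.2% and 47.9% of all genes. Mfn DKO libraries lay wholly below the controls for 4 genes (10.3% of all genes), and Tfam KO libraries for 5 (10.2% of all genes). When Tfam KO replicate 2 was left out, the same 4 genes were called lower in both comparisons, with a background of 9.95% in Mfn DKO and 5.95% in Tfam KO.

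Tfam KO and Mfn DKO livers were compared directly, and edgeR's quasi-likelihood test called 0 of the 10 genes, against 0.294% of all genes. At an unadjusted p under 0.05 the count was also 0, and the Wald test of DESeq2 called 0, against 6.92% of all genes. All 10 log2 fold changes were negative, with a median of -0.74, and the smallest adjusted p was that of Nr0b2 (-1.48, SE 0.73, adjusted p = 0.271). Abcb11 was lower in all 3 Tfam KO than in all 4 Mfn DKO libraries (-0.90, SE 0.47, adjusted p = 0.292), and 5.1% of all genes were so placed. Without Tfam KO replicate 2 the differences were smaller, such as -0.14 (SE 0.31) for Slc10a1 and 0.03 (SE 0.24) for Cyp27a1. Without replicate 3, 5 of the 10 were called lower (background 10.1%), so this comparison turned on which Tfam KO library was used.

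Sex-biased expression was followed through the fits within each kind of library. In Ddx3y libraries alone, 6 of the 10 genes were called lower in Mfn DKO (Cyp8b1, Cyp27a1, Cyp7b1, Baat, Slc27a5 and Slc10a1, background 13.1%). Only 1 Tfam KO library was of that kind, so counts for its comparisons rest on no replicate within that group. They are listed only where the processing settings are compared, and no conclusion is drawn from them. In Xist libraries alone edgeR called 0 of the 10 in either comparison, where 0.00584% and 0% of all genes were called lower. At an unadjusted p under 0.05 the counts were 1 and 2 of the 10 genes, against 1589 and 3489 of 17118 genes. In that fit the Tfam KO group was replicates 2 and 3, which had Cyp7a1 at 6.73 and 223 CPM. With the Xist level as a covariate over all 13 libraries, 2 and 6 genes were called lower (background 5.8% and 11.7%).

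The rest of the synthesis pathway was read from a list of 14 further enzymes and carriers, of which 12 were tested. In Mfn DKO livers 1 fell and 0 rose (4.64% and 5.23% of all genes): Acot8, a peroxisomal thioesterase (-0.45, adjusted p = 0.0408). In Tfam KO livers 4 fell and 0 rose (11.3% and 18.1% of all genes). These were Scp2, the peroxisomal thiolase that shortens the side chain (-1.59, adjusted p = 0.00849), Amacr, the racemase that prepares it (-1.03, adjusted p = 0.00994), Slc27a2, a very long-chain acyl-CoA synthetase (-1.27, adjusted p = 0.0125), and Acot8 (-0.46, adjusted p = 0.0256). Scp2 was 1748 to 4090.0 CPM in controls with a median of 3084 CPM, 2224, 1048, 1862 and 1335 CPM in Mfn DKO and 1212, 564 and 1216 CPM in Tfam KO. Its Tfam KO libraries were all below the controls and its Mfn DKO libraries overlapped them. The controls were 3707 to 4090.0 CPM in Ddx3y libraries and 1748 to 2462 CPM in Xist libraries. Within each kind of library every knockout value was below every control value. The list's median was -0.44 in Mfn DKO and -0.59 in Tfam KO. Without Tfam KO replicate 2, 5 of the list fell in each comparison with control (9.95% and 5.95% of all genes). Hsd3b7, which acts after Cyp7a1, was listed at 0 counts in all 13 livers, and its annotated exons overlap those of 2 other genes. Whether the overlap bears on that count was not tested.

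Of 14 further transporters 13 were tested. Abcc4, a basolateral exporter of bile acids, rose in both genotypes. It was 1.85, 2.80, 2.80, 2.88, 12.4 and 2.61 CPM in controls 1 to 6, 10.2, 35.7, 19.3 and 18.1 CPM in Mfn DKO and 97.3, 175 and 14.4 CPM in Tfam KO. Control 5 overlapped the lowest Mfn DKO library, and the Tfam KO libraries were all above the controls. The log2 fold changes were 2.29 (SE 0.64, adjusted p = 0.0406) and 4.49 (SE 0.70, adjusted p = 0.00136), and 3.72 (adjusted p = 0.00626) in Tfam KO without replicate 2. The cholesterol exporters Abcg5 and Abcg8, which work as a pair, fell in Tfam KO livers, by 1.06 (adjusted p = 0.00229) and 1.26 (adjusted p = 0.00142) on the log2 scale, and were -0.30 (adjusted p = 0.249) and -0.36 (adjusted p = 0.196) in Mfn DKO. Abcg8 was 54.0, 57.3 and 67.9 CPM in Tfam KO livers and 105 to 201 CPM in controls, with no overlap, and here replicate 2 was not the lowest. The list's median log2 fold change was -0.30 in Mfn DKO and -1.05 in Tfam KO, with 1 higher and 0 lower, and 1 higher and 2 lower, where 5.23% and 4.64%, and 18.1% and 11.3%, of all genes were called. Without Tfam KO replicate 2 the counts were 2 higher and 3 lower in Mfn DKO and 1 higher and 3 lower in Tfam KO. Over all genes the shares were then 9.56% and 9.95% in Mfn DKO, and 8.51% and 5.95% in Tfam KO.

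Of 20 further regulators 18 were tested, with 2 higher and 1 lower in Mfn DKO and 2 higher and 7 lower in Tfam KO livers. Over all genes the shares were 5.23% higher and 4.64% lower in Mfn DKO, and 18.1% and 11.3% in Tfam KO. Fgf21, a hepatokine whose product signals through beta-Klotho, was 0.502 to 5.14 CPM in controls with a median of 1.66 CPM, 88.9, 46.8, 45.9 and 83.1 CPM in Mfn DKO and 54.3, 13.1 and 55.5 CPM in Tfam KO. All knockout libraries were above all controls, with log2 fold changes of 4.82 (SE 0.60, adjusted p = 0.000640) and 4.13 (SE 0.60, adjusted p = 0.000996). Ppargc1a, a coactivator of mitochondrial genes, rose by 0.66 (adjusted p = 0.0397) and 0.63 (adjusted p = 0.0321). Foxa2, a hepatocyte transcription factor, fell by 0.86 (adjusted p = 0.0235) and 1.14 (adjusted p = 0.00470). The others that fell in Tfam KO livers were Mafg, Fgfr4, Prox1, Nr1i3, Nr5a2 and Ppara, and none of these 6 passed the test without Tfam KO replicate 2. With that library left out, 2 of the list were lower in Mfn DKO and 1 in Tfam KO (9.95% and 5.95% of all genes). Fgf15, the intestinal signal that acts on Fgfr4, had 0 counts in all livers, which allows at most 3 counts, or 0.0792 CPM in the shallowest library. Ppargc1a, Nr1i3, Nr5a2 and Ppara were named after their values were seen.

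**Figure D4:**
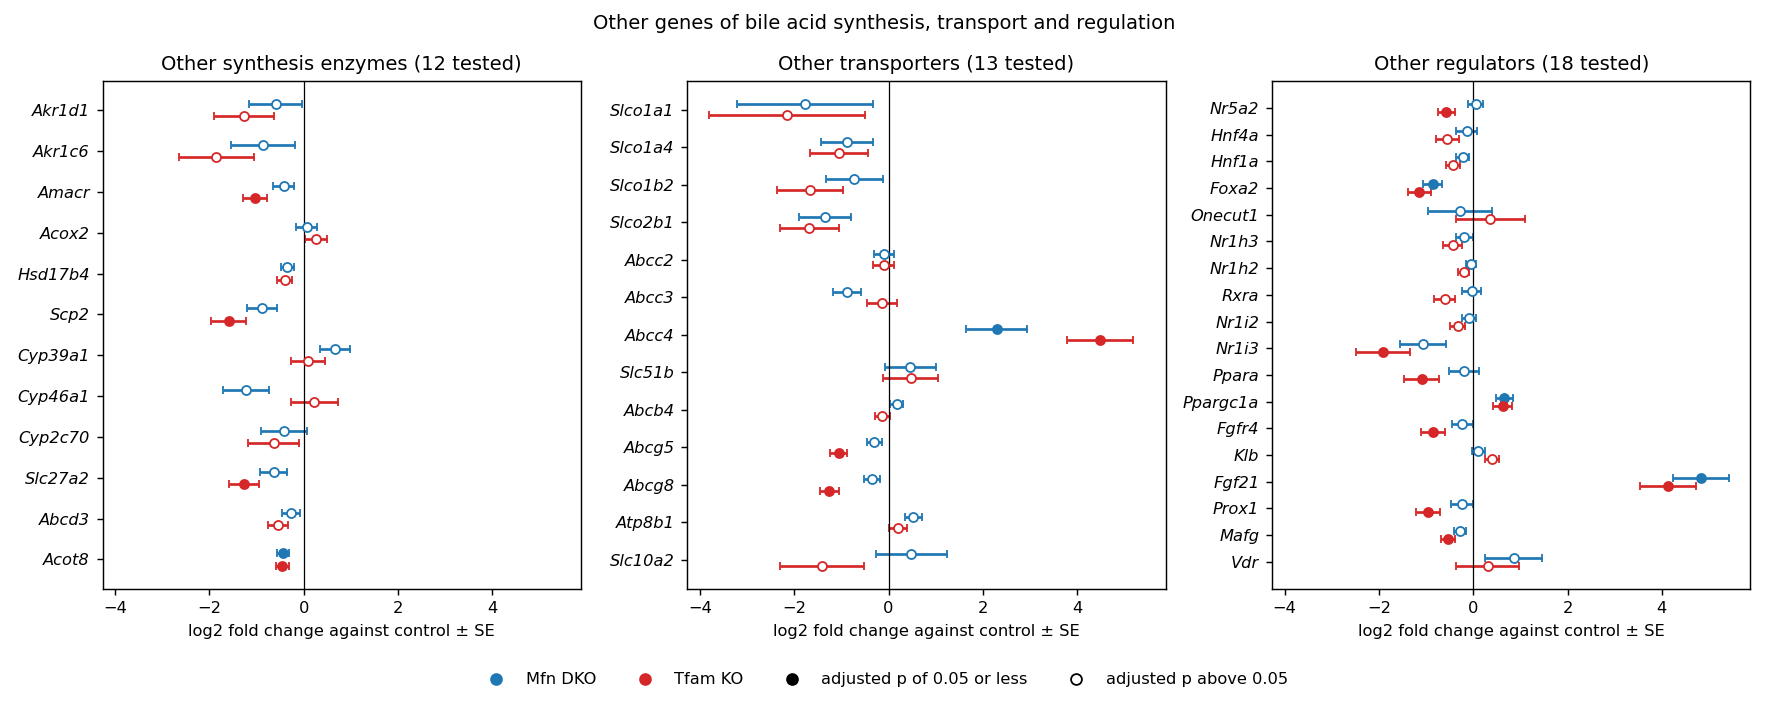
Log2 fold change against control livers with its standard error for the other tested genes of bile acid synthesis (12), transport (13) and regulation (18), in Mfn DKO (blue) and Tfam KO (red). Filled points passed the test at an adjusted p of 0.05 or less. Abcc4 and Fgf21 stand far to the right in both genotypes.

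Markers of other cell types and of liver zones were summed in the same libraries. The 8 markers of pericentral hepatocytes, the zone that holds much of the classic pathway, summed to 12563 to 17161 CPM in controls, 5048 to 7561 CPM in Mfn DKO and 4121, 799 and 8094 CPM in Tfam KO, with both knockout groups below the controls. Cyp2e1 made up most of the control sums. In Mfn DKO 0 of the 8 were called by edgeR (9.87% of all genes), with Oat at 0.09 (adjusted p = 0.869) and Axin2 at 0.22 (adjusted p = 0.598). In Tfam KO 4 were called lower (Cyp2e1, Glul, Oat and Slc1a2), as were 11.3% of all genes. When Tfam KO replicate 2 was left out, 3 were called lower in Mfn DKO (Cyp2e1, Glul and Rgn) and 2 in Tfam KO (Cyp2e1 and Oat). The shares of all genes called lower were then 9.95% and 5.95%. The 7 periportal markers summed to 6465 to 10390.3 CPM, 8122 to 11679 CPM and 2556 to 7499 CPM, with overlap. Macrophage markers were 299 to 573 CPM in controls, 408 to 841 CPM in Mfn DKO and 218 to 550.2 CPM in Tfam KO, and cholangiocyte markers 50.0 to 81.1, 72.1 to 120.2 and 39.1 to 148 CPM. The part of any of these in the fall of the bile acid genes was not tested.

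Genes whose levels followed those of Cyp7a1, Cyp7b1 and Nr0b2 were ranked by Pearson's r of the deviations of log2 CPM from the group means, over 13 libraries and 9848 genes with a mean of at least 5 CPM. The 3 nearest to Cyp7a1 were Lman1 (0.965), Srpr (0.958) and Ero1lb (0.952). Those nearest to Cyp7b1 were Mup20 (0.989), Mup21 (0.984) and Hsd3b5 (0.981). Mup20 and Mup21 belong to a family of near-identical genes, so their counts are uncertain. Nearest to Nr0b2 were Agfg2 (0.936), Zfp563 (0.932) and Grb7 (0.929). These values describe 13 libraries that include Tfam KO replicate 2 and both Xist and Ddx3y libraries.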

How the data were processed

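Per the labels, liver was flash frozen, DNase removed genomic DNA from the total RNA, and paired reads of 151 bp came from a NovaSeq-6000. The submitters' processing notes name GRCm38, STAR 2.6.1b, RSEM 1.3.1, featureCounts, FastQC, MultiQC and DESeq2, with no roles. The annotation is not given in the sources used here. Per the file headers, each file holds raw counts, TPM and CPM for 55487 genes. The deposited counts are whole numbers and were used for all tests. The authors' TPM were used for levels between genes, and the authors' CPM only to check the counts. CPM in the text were computed on TMM-scaled library sizes.

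The 13 livers entered the same model with 1 mean per group and were compared by quasi-likelihood F-tests (edgeR 4.0.16 under R 4.3.3, TMM, filterByExpr), two-sided, with Benjamini-Hochberg adjustment over 17024 genes and a threshold of 0.05. The standard error is the size of the log2 fold change over the square root of F. Alternatives were the size factors and Wald test of DESeq2 1.42.0, total counts, other filters, each library left out, the Xist level as covariate, each kind of library by Xist, the compared groups alone and the replicate number as a block. Leaving out Tfam KO replicate 2 together with the covariate was chosen after seeing the data. The scripts were tested on simulated data. The genes and the other lists were chosen with earlier results of these data known. Named from each list are at most the 5 genes with the smallest adjusted p in any comparison, and others are marked. Coordinates are from GENCODE M21 on GRCm38, and promoters from RefSeq on GRCm38.p6. Intervals of a count of 0 cover counting error only.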

Additional observations from a re-analysis of the deposited data

How the results depend on the processing

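All 13 libraries gave 1, 5 and 0 of the 10 genes called in Mfn DKO against control, Tfam KO against control and Tfam KO against Mfn DKO livers, and 1681, 4992 and 50 of all genes. With each library left out in turn, the counts were 1 to 4, 2 to 7 and 0 to 5 of the 10 genes, and 686 to 3379, 2504 to 7330 and 24 to 4204 of all genes. The extremes came without Tfam KO replicate 2 (4 of the 10 genes and 3379 of all genes in Mfn DKO, 2504 of all genes in Tfam KO), without Tfam KO replicate 3 (7 and 5 of the 10 genes, 7330 and 4204 of all genes), without Tfam KO replicate 1 (2 of the 10 genes in Tfam KO) and without Mfn DKO replicate 1 (686 and 24 of all genes). Without control replicate 1 or control replicate 2, 3 of the 10 genes were called in Tfam KO. At an unadjusted p under 0.05 by edgeR, these fits each had 7 of the 10 genes, and 6550 and 6674 of all genes. Without Tfam KO replicate 1 the same count in Tfam KO was 6 of the 10 genes and 6292 of all genes.

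With the Xist level as covariate 2 of the 10 genes were called in Mfn DKO. Xist libraries alone gave 0, 0 and 0 of the 10 genes and 2, 0 and 2 of all genes by edgeR, with 1589, 3489 and 958 of all genes at an unadjusted p under 0.05. Ddx3y libraries alone gave 6, 8 and 7 of the 10 genes, and 4294 and 2467 of all genes in Mfn DKO against control and Tfam KO against Mfn DKO, where the 8, the 7 and the 2467 rest on 1 Tfam KO library that is assumed to vary like the other groups. The compared groups alone gave 4, 2 and 0 of the 10 genes and 4338, 3228 and 7 of all genes. The Wald test of DESeq2 gave 1, 7 and 0 of the 10 genes, and 2743, 5817 and 1017 of all genes. Total counts without TMM gave 8154 of all genes in Tfam KO and 1226 between the knockouts, and a minimum of 10 counts in every library gave 27 between the knockouts. Without Tfam KO replicate 2 and with the Xist covariate, 6, 5 and 0 of the 10 genes and 4608, 3483 and 78 of all genes were called. The cause of these differences was not tested.

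With the replicate block, 0, 0 and 0 of the 10 genes were called by edgeR (2, 6 and 1 at an unadjusted p under 0.05, as were 3439, 5395 and 2065 of 17024 genes) and 169, 395 and 6 of all genes. Over 10 pairs of libraries of the same number the median correlation of their deviations was 0.0873, from -0.343 to 0.350, and 5 were over 0.1. It was positive in every pair of the same kind (Xist or Ddx3y) and negative in every pair of unlike kind. Pairs of unlike number were not compared, so these values cannot decide whether the numbers pair the libraries.

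None of the differences whose direction changed was called over all 13 libraries, though Cyp27a1 between the knockouts was called lower without Tfam KO replicate 3. For Cyp7a1 in Mfn DKO the log2 fold change was -0.093 in Xist libraries and ran from -0.050 (without Mfn DKO replicate 2) to 0.42 with each library left out, negative also without Mfn DKO replicate 1 (-0.019). For Cyp7a1 in Tfam KO it ran from -1.07 to 0.090 (without Tfam KO replicate 2), and it was 0.13 with the covariate too and 0.012 in that last fit between the knockouts. Between the knockouts Cyp7b1 was 0.046 with the covariate and 0.33 also without Tfam KO replicate 2. Cyp27a1 there ran from -0.78 to 0.033 (without Tfam KO replicate 2), and was 0.063 with the covariate too. Limits are the 3 Tfam KO libraries, of which 1 decides several calls, the unlabelled sex, and 1 Ddx3y library among them. Depth was not limiting for the 10 genes, the lowest value being 1.55 CPM.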

Other observations

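The same 10 genes were listed in the 33 islet libraries of the study, which the comparisons above do not use. By the authors' TPM, Cyp7a1 had 0 counts in all 33, and Cyp8b1 had 0 counts in 26 and at most 4 counts in the others. Slc10a1 had at most 0.361 TPM and 0 counts in 19 libraries, and Baat and Slc27a5 had at most 0.205 and 0.352 TPM. Nr0b2 ran from 0.0508 to 0.690 TPM, Abcb11 from 0.336 to 1.16 TPM and Cyp27a1 from 0.549 to 2.71 TPM. The highest were Nr1h4, at 3.97 to 22.7 TPM with a median of 14.7 TPM, and Cyp7b1, at 3.86 to 10.1 TPM with a median of 5.28 TPM. In control livers the lowest values of these genes were 153 TPM for Nr1h4 and 21.2 TPM for Cyp7b1, above every islet library. The liver library with the least Cyp7a1, Tfam KO replicate 2, still had 6.71 TPM.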
